A study of Mus musculus with 18 samples.

Results

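The comparison set mouse cortical neural progenitor cells with floxed alleles of Upf2 and Trp53, given Cre, against untreated progenitors with floxed Upf2. Neural progenitor cells divide and produce cortical neurons and glia. All were C57BL/6 cells from cortex. The 6 Upf2 Trp53 Cre libraries came from Upf2fl/fl Trp53fl/fl cells given AAV9-Cre, an adeno-associated virus carrying Cre recombinase, which cuts out DNA between loxP sites. The 6 Upf2 mock libraries came from Upf2fl/fl cells given the same volume of medium. Medium was replaced at 14 h in the virus arm and RNA was taken at 72 h. The 12 libraries are 12 of 18, and both groups carry biological replicate numbers 3, 4, 5, 6, 8 and 9. The third group, the 6 Upf2 Cre libraries (Upf2fl/fl cells with the same virus), is used only beside named results. Untreated cells of the doubly floxed line and a virus without Cre were not analysed here, so the line, the virus, loss of Trp53 and loss of Upf2 cannot be told apart. The labels do not say whether the cultures came from separate animals, so the p values measure the spread between these cultures. Of 55573 genes in the table, 14615 had at least 1 TPM (a level per transcript length, scaled to a fixed total per library) in at least 6 of the 12 libraries and were tested.

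Nonsense-mediated mRNA decay (NMD) degrades transcripts with a premature stop codon and some normal transcripts. UPF1 is its helicase, UPF2 and UPF3 join UPF1 to the exon junction complex left by splicing, SMG1 phosphorylates UPF1, and SMG5 and SMG6 act in the decay step. Several NMD factors are themselves encoded by NMD targets. p53, the product of Trp53, is a transcription factor that drives cell cycle arrest and death genes after stress. Type I interferon signalling runs from a receptor through STAT2 and IRF9, among others, to antiviral genes that carry an interferon-stimulated response element. The integrated stress response raises translation of ATF4, which drives amino acid supply genes and Ddit3.

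Depth is unknown, since TPM keeps no read total. Between 14026 and 14657 genes reached 1 TPM in the mock libraries and between 14432 and 15210 in the Upf2 Trp53 Cre libraries. Mock 3 stood apart on the second principal component (76.04, against -31.05 to 14.66 for the other libraries, 21.9% of variance). Mock 8 (24.18) lay among the Upf2 Trp53 Cre libraries on the first component, and Upf2 Trp53 Cre 3 (-16.84) lay among the mock libraries (37.5% of variance). The libraries also differed in how GC-rich and GC-poor transcripts were represented. With protein-coding genes cut into 5 equal groups by GC content, the median log2(TPM + 1) of the most GC-rich group minus that of the most GC-poor ran from 0.31 to 2.00 in mock (median 0.82) and from 0.67 to 2.29 in Upf2 Trp53 Cre (median 1.56).

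The targeted genes went in opposite directions. Trp53 (ENSMUSG00000059552.13, chromosome 11, 69580359 to 69591873, plus strand, mm10) stood at 81.4, 102 and 136 TPM (lowest, median and highest library) in mock. In the Upf2 Trp53 Cre libraries it stood at 14.0, 16.7 and 18.4 TPM. Every Upf2 Trp53 Cre library lay below every mock library, and the log2 difference was -2.57 (means 104 ± 18.2 and 16.5 ± 1.69 TPM, SD, n = 6 and 6; exact two-sided permutation p = 0.0022, the smallest that 924 regroupings can give). Upf2 (ENSMUSG00000043241.14, chromosome 2, 5951469 to 6056703, plus strand) stood at 6.54, 11.02 and 15.8 TPM in mock and at 23.5, 33.1 and 44.4 TPM in the Upf2 Trp53 Cre libraries. Here too the groups do not overlap, with a log2 difference of 1.52 (means 11.1 ± 2.98 and 33.8 ± 9.03 TPM, SD, n = 6 and 6; exact two-sided permutation p = 0.0022). The Upf2 level thus goes against the label of a deletion. A gene-level TPM does not resolve the floxed exons and so checks neither presence nor absence of the deletion; the group names are those of the labels throughout.

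Changes were mostly upward. At an adjusted p under 0.05 (limma, Benjamini-Hochberg over all tested genes), 1694 genes were higher in the libraries labelled Upf2 Trp53 Cre (11.6% of tested genes) and 187 were lower (1.28%). Log2 differences beyond 1 were seen for 571 of the higher and 69 of the lower genes, and beyond 3 for 15 and 7. The 6 values of one group lay wholly outside those of the other for 1142 genes (7.81%), 1023 of them higher. Over all tested genes the median log2 difference stood at 0.076; it moved to -0.026 with median-ratio scaling and to -0.036 with quantile normalization. Of the called genes 90.1% were higher; the share was 70.1% (1133 higher, 484 lower) with median-ratio scaling and 66.4% (1133 higher, 573 lower) with quantile normalization. All log2 differences are on the log2(TPM + 1) scale, which understates changes of low genes. A gene under 1 TPM in mock could enter the test only through the higher group, so its call is no independent support.

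**Figure D1:**
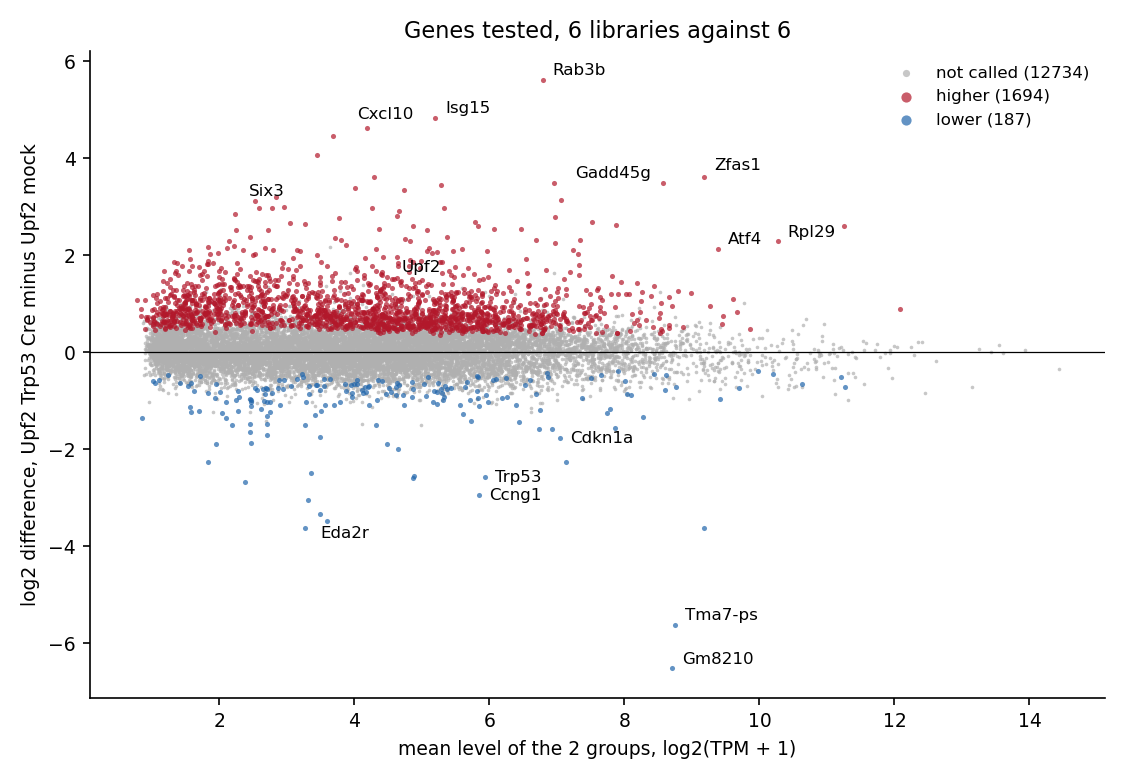
Log2 difference (vertical axis, Upf2 Trp53 Cre minus Upf2 mock) against mean level of both groups (horizontal axis, log2(TPM + 1)) for the 14615 tested genes. Red points are the 1694 higher genes and blue points the 187 lower genes; Rab3b is at the top (5.61) and Gm8210 at the bottom (-6.51).

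Calls followed the GC content of the transcripts. Over 5 equal groups of protein-coding genes with median GC of 41.5%, 46.0%, 49.9%, 53.7% and 58.0%, the share called higher was 1.70%, 5.44%, 12.1%, 21.2% and 23.2%. With a smooth GC trend taken off each library, an alternative chosen after seeing the data, these shares were 5.22%, 8.11%, 10.1%, 12.2% and 11%. That setting called 1275 genes higher and 737 lower. It kept 1079 of the 1694 higher genes (63.7%) and 175 of the 187 lower genes (93.6%). Counts without both libraries numbered 3 were 2892 and 559, and 1664 (98.2%) and 176 (94.1%) of the main calls were among them. List counts with the GC trend removed are therefore given beside many lists, and a list given without one did not necessarily keep its calls. The part of GC representation in the other results was not tested.

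**Figure D2:**
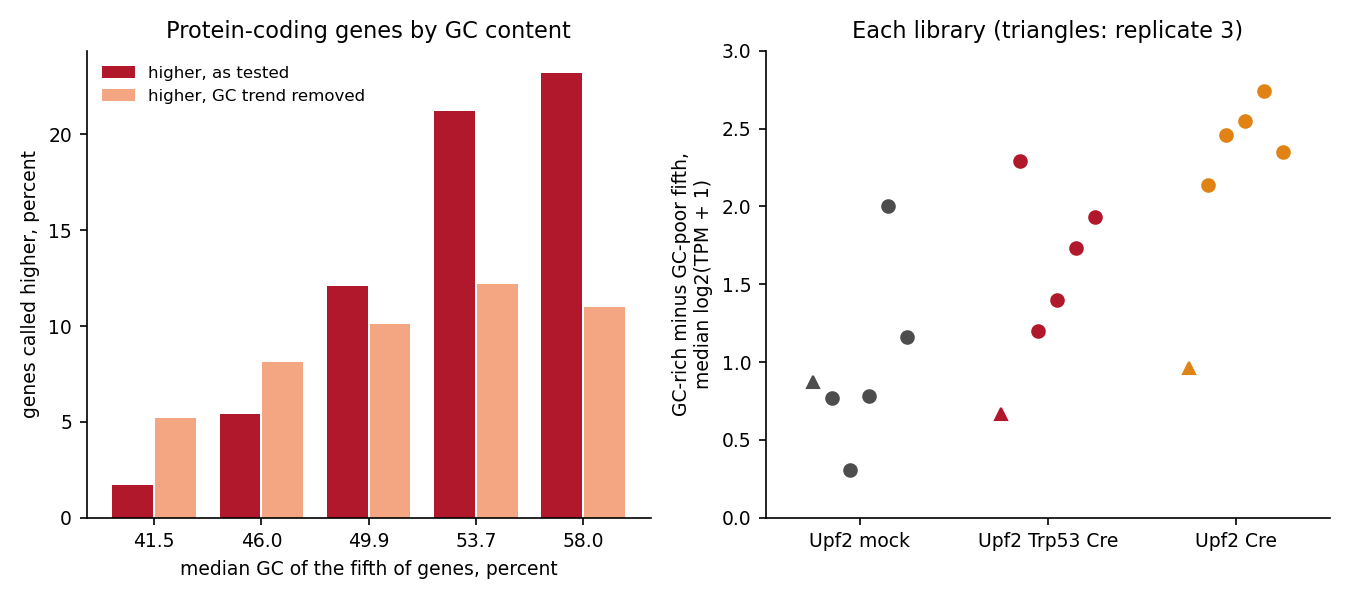
Left, percentage of protein-coding genes called higher in each of 5 groups by transcript GC content, as tested (dark) and with the GC trend removed (light); the first runs from 1.70% to 23.2%, the second from 5.22% to 12.2%. Right, the median log2(TPM + 1) of the most GC-rich minus the most GC-poor group in each library, with 0.31 to 2.00 in mock, 0.67 to 2.29 in Upf2 Trp53 Cre and 0.96 to 2.74 in Upf2 Cre.

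Interferon-induced genes rose in the libraries labelled Upf2 Trp53 Cre. Of 46 tested members of the interferon list, 26 were higher and none lower, against 11.6% and 1.28% of all tested genes, and their median log2 difference was 0.94 against 0.076. With the GC trend removed 27 were higher and 1 lower. In this bulk RNA, more cells of a kind and more RNA per cell cannot be told apart. Of the 46, 7 reached 1 TPM in fewer than 3 mock libraries and entered the test through the group where they were high; among the 39 others, 19 were higher and the median was 0.59. Another 31 members stayed under the minimum, none above 5.11 TPM in any of the 12 libraries. Isg15, a ubiquitin-like modifier, stood at 0.655, 1.26 and 2.87 TPM in mock and at 41.6, 74.6 and 96.6 TPM in Upf2 Trp53 Cre. All 6 Upf2 Trp53 Cre libraries were high, far from any mock library (log2 difference 4.84 ± 0.27, SE, limma adjusted p = 2.7e-08). Cxcl10, a chemokine that draws T cells, stood at 0.112, 0.319 and 0.783 TPM in mock and at 23.4, 28.7 and 65.3 TPM in Upf2 Trp53 Cre. Its groups do not overlap, and 1 library, Upf2 Trp53 Cre 5, was above the other 5 (4.62 ± 0.22, limma adjusted p = 6.3e-09). Oasl1, an oligoadenylate synthetase-like protein, was at most 0.528 TPM in mock and at least 15.4 TPM in Upf2 Trp53 Cre (4.06 ± 0.17, limma adjusted p = 1.6e-09).

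The promoters of Isg15, Cxcl10 and Stat2 are shown because their genes rose and each holds the response element of the pathway. Windows run from 250 bases before to 50 after the transcript start (RefSeq, GRCm38.p6). Capitals mark matches to GAAA, any 2 bases, GAAA on either strand; overlapping matches run together. The windows are chr4:156200769-156201068 (minus strand) for Isg15, chr5:92348840-92349139 (minus) for Cxcl10 and chr10:128270248-128270547 (plus) for Stat2.
Isg15: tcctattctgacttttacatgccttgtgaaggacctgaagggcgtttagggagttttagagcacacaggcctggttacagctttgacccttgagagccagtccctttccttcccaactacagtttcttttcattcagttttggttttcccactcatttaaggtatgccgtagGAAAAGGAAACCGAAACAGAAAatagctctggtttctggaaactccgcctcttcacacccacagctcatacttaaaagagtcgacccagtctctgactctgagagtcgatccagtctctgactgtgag
Cxcl10: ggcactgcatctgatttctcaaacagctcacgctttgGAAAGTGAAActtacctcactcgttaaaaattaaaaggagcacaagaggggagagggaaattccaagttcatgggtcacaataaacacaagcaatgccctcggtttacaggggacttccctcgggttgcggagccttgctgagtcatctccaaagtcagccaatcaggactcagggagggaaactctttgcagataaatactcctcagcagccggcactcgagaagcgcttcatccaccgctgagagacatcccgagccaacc
Stat2: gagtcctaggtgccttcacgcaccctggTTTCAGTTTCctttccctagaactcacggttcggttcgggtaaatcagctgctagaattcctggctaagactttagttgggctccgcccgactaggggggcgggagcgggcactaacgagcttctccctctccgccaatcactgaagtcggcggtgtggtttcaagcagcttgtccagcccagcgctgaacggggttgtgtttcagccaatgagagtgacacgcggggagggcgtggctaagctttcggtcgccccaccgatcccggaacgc
Isg15 holds 3 overlapping matches that begin 78, 72 and 66 bases before the start, Cxcl10 holds 1 at 213 bases and Stat2 1 at 222 bases. Of the 26 higher interferon genes, 20 had a promoter in the table and 11 of these (55.0%) held the element. It was present in 3 of 18 tested members that were not called (16.7%) and in 3.99% of all 27025 genes with a promoter. The 26 include members that entered the test through the higher group. Of these, Lgals9 and Ifit3 held the element, while Oasl1 and Oasl2 had a promoter without it. The list names interferon pathway genes, so these shares are a description and no independent support. A match is a description of letters, and no binding was measured.

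By role, most tested signal transducers rose, while no ligand or receptor passed the test. Of the 8 ligand and receptor genes 4 were tested and limma called none, 1 having an unadjusted p under 0.05; the interferon receptor chain Ifnar2 had a log2 difference of 0.42 ± 0.23 (limma adjusted p = 0.25) and Ifngr1 of -0.71 ± 0.29 (limma adjusted p = 0.12). Ifngr1 was called lower without mock 8 or without Upf2 Trp53 Cre 3, where the limma adjusted p over the single-library fits ran from 0.018 to 0.25. Ifnb1, interferon beta, was listed at 0 in all 12 libraries. Of 10 tested signalling genes 7 rose. They include Irf9, the DNA-binding part of the complex (log2 1.47 ± 0.19), Stat2 (0.95 ± 0.15) and Usp18, which removes ISG15 from proteins and restrains the receptor (1.62 ± 0.30). Irf9 had a median of 3.51 TPM in mock and 13.0 TPM in Upf2 Trp53 Cre. Irf7 stayed under the minimum at 0.369 to 2.10 TPM in Upf2 Trp53 Cre, against at most 0.510 in mock. Ifit1, a binder of foreign 5′ ends, also stayed under it, at 0.821 to 5.11 TPM against at most 0.127.

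Of 17 tested antiviral effectors 10 rose and none fell, with a median log2 difference of 1.76. Of the 17, 5 entered the test through the group where they were high; among the 12 others 5 rose and the median was 0.39. Oasl2 went from a median of 0.0707 to 6.93 TPM (log2 2.86 ± 0.20), and Rsad2, which makes a chain-terminating nucleotide, from 1.17 to 12.9 TPM (2.67 ± 0.24). Ifit3 went from 0.528 to 5.87 TPM (2.16 ± 0.22). Rsad2 and Ifit3 were chosen after their values were seen. For these 3 genes every Upf2 Trp53 Cre library was above every mock library. The others were Oas1b (1.86), Mx2 (2.01), the virion tether Bst2 (1.76), Ifitm3 (2.09) and Rtp4 (1.49). Among 15 tested other induced genes 9 rose (7 of the 13 that did not enter through the higher group), with Xaf1 (2.12 ± 0.22), which binds the apoptosis inhibitor XIAP, Lgals9 (1.47 ± 0.15) and Ifi35 (1.07 ± 0.18). The guanylate-binding proteins Gbp2 (2.1), Gbp3 (1.59) and Gbp7 (1.07) and the GTPase Igtp (1.23) are also among them. Members given here and below with a log2 difference alone were chosen after their values were seen. The highest value of the 26 risen genes fell in Upf2 Trp53 Cre 8 for 8, in 5 for 7, in 9 for 5, in 3 for 4 and in 4 and 6 for 1 each, so no single library set the list. For 16 of the 26 the groups do not overlap. Over all 14615 tested genes 1881 were called and 1142 did not overlap. Such a count among called members does not by itself set a list apart. Without both libraries numbered 3, 29 of the 46 were higher and 1 lower.

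Sensors of foreign nucleic acid rose in part. Of 19 tested members of the sensing list 4 were higher and none lower, with a median log2 difference of 0.35. Of the 19, 2 reached 1 TPM in fewer than 3 mock libraries, Dhx58 among them. Among the 17 others 3 were higher and the median was 0.25, beside 11.6% higher among all tested genes. The RNA helicases Ddx58 (RIG-I) and Dhx58 had log2 differences of 1.10 ± 0.27 and 0.85 ± 0.20, and the DNA sensor Cgas of 0.94 ± 0.26. Adar, which edits double-stranded RNA and so dampens sensing, stood at 21.8, 27.6 and 34.1 TPM in mock and 48.7, 60.4 and 65.2 TPM in Upf2 Trp53 Cre. Its groups do not overlap (1.06 ± 0.14, limma adjusted p = 0.00012). None of the 7 tested adaptors and kinases was called by limma (1 had an unadjusted p under 0.05), among them Mavs (0.35 ± 0.19, limma adjusted p = 0.27). The Cgas call was lost without mock 9 or Upf2 Trp53 Cre 5, 6 or 9 (limma adjusted p up to 0.067), and the Dhx58 call with the GC trend removed.

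MHC class I genes, which present peptides to T cells, and NF-kB genes also rose in part. Of 19 tested class I genes 5 were higher and none lower (median 0.35), beside 11.6% and 1.28% of all tested genes. Of the 19, 2 reached 1 TPM in fewer than 3 mock libraries, Psmb8 among them, and 4 of the 17 others were higher. H2-Q4 (log2 1.26 ± 0.19) and H2-D1 (0.87 ± 0.14) are heavy chains and Psmb8 (1.33 ± 0.20) is a subunit of the immunoproteasome; H2-D1 ran from 20.1 to 31.5 TPM in mock and from 37.2 to 52.4 in Upf2 Trp53 Cre. Heavy-chain genes are near copies of each other, and how shared reads were counted is not given in the sources used here. Of 17 tested chemokine and NF-kB genes 6 were higher and none lower (median 0.49). Besides Cxcl10 they include the NF-kB subunits Relb (1.15 ± 0.20) and Nfkb2 (0.68 ± 0.15), the cytokine Lif (1.05 ± 0.18) and the macrophage growth factor Csf1 (0.82 ± 0.20). Cxcl10 and Lif entered the test through the group where they were high. Among the 15 others 4 were higher and the median was 0.42. With the GC trend removed, 3 class I and 5 chemokine and NF-kB genes were higher.

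NMD factor genes rose. Of 15 tested, 7 were higher and none lower, beside 11.6% and 1.28% of all tested genes. Their median log2 difference was 0.43. With the GC trend removed, or without both libraries numbered 3, 8 were higher. Smg5 stood at 40.6, 52.1 and 58.2 TPM in mock and at 105, 137 and 177 TPM in Upf2 Trp53 Cre. The groups do not overlap, and the lowest Upf2 Trp53 Cre library was still well above the highest mock library (1.37 ± 0.14, limma adjusted p = 2.1e-05). Smg1 (1.04 ± 0.20), Smg9, a partner of SMG1 (0.94 ± 0.16), Smg6 (0.92 ± 0.16) and Upf1 (0.72 ± 0.16) rose too, and Upf2 is counted in this list. Upf3b had 0.43 ± 0.18 (limma adjusted p = 0.15), and was called only without mock 3, without both libraries numbered 3, or with the GC trend removed (limma adjusted p over the single-library fits 0.046 to 0.27). Of 10 tested exon junction complex genes 2 were higher and none lower (median 0.02), beside the same 11.6% and 1.28%. Pym1, which takes the complex off mRNA (0.62 ± 0.13), and Casc3, a core subunit (0.53 ± 0.12), are those 2, and neither was called with the GC trend removed.

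Of 34 tested genes that have been described as NMD targets, 13 were higher and 1 was lower (median 0.36). The shares over all tested genes were 11.6% and 1.28%. The stress and growth genes made up 11 of the 13 (14 tested, median 2.38), and the other targets 2 (20 tested, median -0.06). Gadd45b, a stress-induced growth regulator, stood at 2.07, 3.63 and 5.78 TPM in mock and 31.9, 48.0 and 64.6 TPM in Upf2 Trp53 Cre. No library of one group came near the other (3.35 ± 0.22, limma adjusted p = 1.9e-07). Its relatives Gadd45g (27.4 to 180 TPM in mock, 448 to 1012 in Upf2 Trp53 Cre; 3.49 ± 0.37) and Gadd45a (1.28 ± 0.25) rose as well. Rassf1, a tumour suppressor gene, went from 6.48 to 7.80 TPM in mock to 41.0 to 64.7 TPM (2.61 ± 0.14, limma adjusted p = 1.7e-08). The lower one was Cdkn1a, described with the p53 targets. For 10 of these 14 called genes the groups do not overlap, beside 1881 called and 1142 non-overlapping among all tested genes.

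Host transcripts of small nucleolar RNAs, whose spliced forms are degraded by NMD, rose. Of 18 tested, 11 were higher and none lower, beside 11.6% and 1.28% of all tested genes. Their median log2 difference was 1.21. The counts were the same with the GC trend removed and with median-ratio scaling or quantile normalization. Zfas1 stood at 60.7, 67.3 and 275 TPM in mock and at 907, 1043 and 1259 TPM in Upf2 Trp53 Cre. Mock 3 alone held the 275, and the groups do not overlap (3.61 ± 0.31, limma adjusted p = 3.0e-06). Snhg15 (13.0 to 35.0 TPM in mock, 180 to 303 in Upf2 Trp53 Cre; 3.14 ± 0.21) and Snhg17 (1.88 ± 0.18) followed. Gas5 overlapped between groups, with 57.5 to 174 TPM in mock and 157 to 359 TPM in Upf2 Trp53 Cre (1.29 ± 0.24, limma adjusted p = 0.0026). Snhg12 (2.79), Snhg1 (2.68), Snhg5 (2.62), Epb41l4aos (1.3), Snhg8 (1.24) and Snhg10 (1.14) rose too. Upf2 Trp53 Cre 3 held the highest value for 8 of the 11, and without both libraries numbered 3, 12 of 18 were higher.

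**Figure D3:**
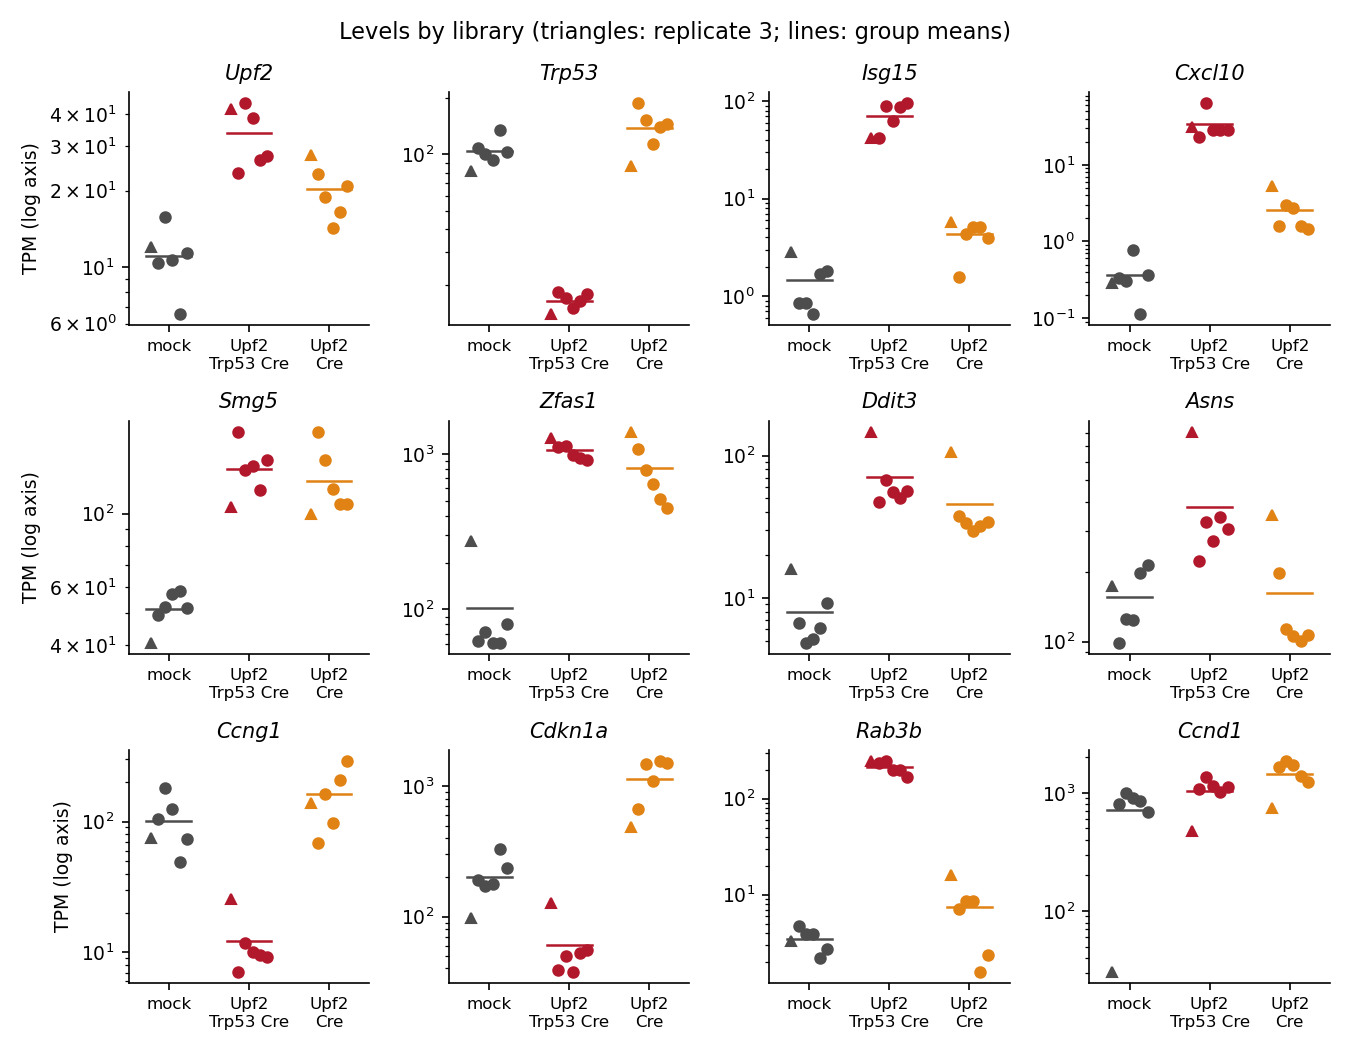
Level in TPM (log axis, a separate scale per gene) of 12 genes in each library of Upf2 mock, Upf2 Trp53 Cre and Upf2 Cre; points are libraries, triangles replicate 3 and lines group means. Isg15, Cxcl10 and Rab3b are highest in the Upf2 Trp53 Cre libraries, Trp53 and Ccng1 are lowest there, and Ccnd1 in mock 3 (30.4 TPM) lies far below the other libraries.

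Genes of the integrated stress response rose. Of 26 tested, 13 were higher and none lower (median 0.98), beside 11.6% and 1.28% of all tested genes. For 10 of the 13 the groups do not overlap, beside 1881 called and 1142 non-overlapping among all tested genes. Atf4, its central transcription factor, stood at 124, 278 and 296 TPM in mock and at 861, 1129 and 1210 TPM in Upf2 Trp53 Cre. The groups are well separated, with mock 3 below the other mock libraries (2.14 ± 0.20, limma adjusted p = 8.8e-06). Ddit3 (CHOP), which promotes death under lasting stress, stood at 4.79, 6.41 and 15.96 TPM in mock and at 47.4, 56.0 and 148 TPM in Upf2 Trp53 Cre. All of the latter were higher, and Upf2 Trp53 Cre 3 stood out upward (2.98 ± 0.30, limma adjusted p = 1.5e-05). Atf3 (1.10 to 1.92 TPM in mock, 11.98 to 90.1; 3.61 ± 0.34), the pseudokinase Trib3 (1.54 to 7.84, 32.4 to 234; 3.46 ± 0.44) and the glutathione-degrading enzyme Chac1 (5.58 to 36.9, 43.1 to 270; 2.61 ± 0.53) rose also. Chac1 was chosen after its values were seen. Ppp1r15a (GADD34), which ends the response by dephosphorylating eIF2 alpha, rose from a median of 15.8 to 76.2 TPM (2.14 ± 0.14). The translation inhibitor Eif4ebp1 (1.65 ± 0.24) and the mTORC1 brake Sesn2 (0.96 ± 0.25) rose less, and the Sesn2 call was lost with the GC trend removed and with median-ratio scaling. Upf2 Trp53 Cre 3 held the highest value for 11 of the 13, and without both libraries numbered 3, 14 of 26 were higher.

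Supply of amino acids rose in part. Of 20 tested synthesis genes 6 were higher and none lower, beside 11.6% and 1.28% of all tested genes. Their median was 0.39, and 4 were higher with the GC trend removed. Asns, which makes asparagine, stood at 98.4, 150 and 215 TPM in mock and at 222, 318 and 809 TPM in Upf2 Trp53 Cre. The groups only just part, and Upf2 Trp53 Cre 3 was far above its group (1.2 ± 0.28, limma adjusted p = 0.011). Bcat1, a branched-chain aminotransferase (1.86 ± 0.15), Aldh18a1 of proline synthesis (1.2 ± 0.19) and the mitochondrial serine enzyme Shmt2 (0.96 ± 0.18) rose. Phgdh, which opens serine synthesis, had 0.29 ± 0.19 (limma adjusted p = 0.35), and Psat1, chosen after its values were seen, 0.16 ± 0.24 (limma adjusted p = 0.71). Of 16 tested transporters 6 were higher and none lower (median 0.66): the cationic carrier Slc7a1 (1.70 ± 0.33), the cystine carrier Slc7a11 (1.39 ± 0.27), Slc1a4 (1.21 ± 0.15), Slc7a5 (1.22), its partner Slc3a2 (1.14) and Slc38a7 (0.82). Of 20 cytosolic tRNA synthetases 5 were higher and none lower (median 0.48), namely Yars (0.98 ± 0.20), Aars (0.91 ± 0.18), Mars (0.80 ± 0.16), Cars (0.92) and Wars (0.77). The Slc38a7 and Cars calls were lost with the GC trend removed.

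The promoters of Trib3 and Asns are shown because both genes rose and each holds the element that ATF4 and C/EBP proteins bind. Capitals mark TGATG, any base, AA on either strand in windows of the same size (RefSeq, GRCm38.p6), chr2:152344011-152344310 (minus strand) for Trib3 and chr6:7693160-7693459 (minus) for Asns.
Trib3: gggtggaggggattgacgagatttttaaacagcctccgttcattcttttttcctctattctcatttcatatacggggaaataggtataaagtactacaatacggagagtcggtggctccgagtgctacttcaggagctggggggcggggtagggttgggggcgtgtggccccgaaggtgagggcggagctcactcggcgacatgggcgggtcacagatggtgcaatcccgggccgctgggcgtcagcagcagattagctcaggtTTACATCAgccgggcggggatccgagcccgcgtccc
Asns: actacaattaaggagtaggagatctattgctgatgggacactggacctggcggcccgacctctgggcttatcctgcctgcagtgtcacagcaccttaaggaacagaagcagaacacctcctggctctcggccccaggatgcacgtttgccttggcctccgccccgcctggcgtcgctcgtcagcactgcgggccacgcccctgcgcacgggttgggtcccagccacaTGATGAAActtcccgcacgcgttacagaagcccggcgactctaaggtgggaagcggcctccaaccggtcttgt
The match begins 14 bases after the start in Trib3 and 23 bases before it in Asns. The element was in 5 of 12 higher stress response genes with a promoter (41.7%) and in 5 of 13 higher genes of the synthesis, transporter and synthetase lists (38.5%), against 4.51% of all genes with a promoter.

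The unfolded protein response, which senses misfolded protein in the endoplasmic reticulum, did not exceed the share over all genes, with 2 of 26 tested genes higher and none lower (median 0.07). Those were the sensor Ern1 (0.63 ± 0.16) and the chaperone Hyou1 (0.66 ± 0.17), each lost in 2 fits without 1 library (mock 4 or Upf2 Trp53 Cre 9 for Ern1, Upf2 Trp53 Cre 5 or 9 for Hyou1; limma adjusted p up to 0.053). Of 16 heat shock genes 4 were higher and 1 lower, beside 11.6% and 1.28% of all tested genes. Among the 14 that reached 1 TPM in at least 3 mock libraries 2 were higher and 1 lower. The small chaperones Hspb1 (1.81 ± 0.25, under 1 TPM in every mock library) and Hspb8 (1.74 ± 0.26) and the factor Hsf1 (0.85 ± 0.16) rose. Hspa8, the constitutive chaperone, was lower (-0.66 ± 0.19, limma adjusted p = 0.037), a call lost in 9 of 12 fits without 1 library (all but those without mock 3, mock 8 or Upf2 Trp53 Cre 5; limma adjusted p up to 0.092). Of 21 targets of NRF2, the antioxidant regulator, 4 were higher and none lower (3 and 3 with the GC trend removed). Osgin1 (2.53 ± 0.33) and the haem-degrading enzyme Hmox1 lead them. Hmox1 ran from 83.4 to 150 TPM in mock and from 206 to 300 in Upf2 Trp53 Cre (1.21 ± 0.16). Osgin1 was under 1 TPM in every mock library and entered the test through the higher group. Among the 20 other targets 3 were higher, beside 11.6% of all tested genes.

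Genes of the p53 pathway fell in part. Of 58 tested members 15 were lower and 7 higher, against 1.28% and 11.6% of all tested genes, with a median of -0.34. Trp53 itself is 1 of the 15. With the GC trend removed 21 were lower and 4 higher, and without both libraries numbered 3, 24 and 10. Over all tested genes these settings called 737 lower and 1275 higher, and 559 and 2892, beside 187 and 1694 in the main fit. Ccng1 (cyclin G1, a feedback gene) stood at 49.4, 89.5 and 179 TPM in mock and at 7.05, 9.85 and 25.6 TPM in Upf2 Trp53 Cre. The groups do not overlap (-2.94 ± 0.32, limma adjusted p = 2.5e-05). Eda2r, a death receptor, stood at 14.0, 20.5 and 32.1 TPM in mock and at 0.385, 0.825 and 2.37 TPM in Upf2 Trp53 Cre. No library of one group approached the other (-3.48 ± 0.24, limma adjusted p = 2.8e-07). Cdkn1a (p21), the main cell cycle inhibitor among p53 targets, stood at 98.3, 184 and 331 TPM in mock and at 37.5, 51.5 and 127 TPM in Upf2 Trp53 Cre. Its groups overlap through both libraries numbered 3, the lowest mock and the highest Upf2 Trp53 Cre value (-1.76 ± 0.31, limma adjusted p = 0.0014).

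Trp53inp1 (-2.59 ± 0.38), Dglucy (-2.48 ± 0.27), the carbonyl reductase Dcxr (-1.98 ± 0.20) and Psrc1 (-1.41 ± 0.16) fell beside them, as did Ak1 (-1.43), the thiamine carrier Slc19a2 (-1.2), the repair enzyme Mgmt (-1.02) and Ckap2 (-0.82). Other well known targets did not pass the test. The ligase Mdm2, which degrades p53, ran from 13.8 to 30.2 TPM in mock and from 13.2 to 27.2 TPM in Upf2 Trp53 Cre (-0.15 ± 0.22, limma adjusted p = 0.70). The death genes Bbc3 (PUMA; -0.34 ± 0.22, limma adjusted p = 0.35) and Bax (-0.25 ± 0.18, limma adjusted p = 0.40) overlapped between groups, and Bax was called lower with the GC trend removed. Higher members included Cdkn2a, which encodes p16 and the p53 stabiliser p19Arf (17.6 to 67.2 TPM in mock, 76.8 to 152; 1.34 ± 0.27), Trp53i11 (1.29 ± 0.24) and the kinase Plk3 (0.80 ± 0.16), the last lost with the GC trend removed. Gadd45a, Sesn2 and Lif are members of this list and of others above. For 17 of the 22 called members the groups do not overlap, beside 1881 called and 1142 non-overlapping among all tested genes.

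The promoters of Ccng1 and Cdkn1a are shown because these genes fell and hold the p53 half-site, of which a full element has a pair. Capitals mark the half-site in windows chr11:40755237-40755536 (minus strand) for Ccng1 and chr17:29090729-29091028 (plus) for Cdkn1a (RefSeq, GRCm38.p6).
Ccng1: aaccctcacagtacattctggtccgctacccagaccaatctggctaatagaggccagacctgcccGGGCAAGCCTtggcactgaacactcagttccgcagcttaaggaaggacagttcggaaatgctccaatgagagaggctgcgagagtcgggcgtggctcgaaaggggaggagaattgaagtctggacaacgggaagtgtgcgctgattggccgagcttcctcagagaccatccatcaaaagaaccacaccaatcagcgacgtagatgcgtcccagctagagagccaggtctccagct
Cdkn1a: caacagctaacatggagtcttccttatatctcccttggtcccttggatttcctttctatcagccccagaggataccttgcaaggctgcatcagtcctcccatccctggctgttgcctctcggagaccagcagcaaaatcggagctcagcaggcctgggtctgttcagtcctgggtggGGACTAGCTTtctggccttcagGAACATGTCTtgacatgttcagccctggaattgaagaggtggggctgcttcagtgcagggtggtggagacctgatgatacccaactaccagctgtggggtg
The match begins 185 bases before the start in Ccng1, and 73 and 51 bases before it in Cdkn1a. Cdkn1a had 2 promoters in the table, and the window shown was taken among those with a match. Its later match is followed directly by tgacatgttc, which departs from the half-site only at its opening base. Of 14 lower p53 pathway genes with a promoter 4 (28.6%) held a half-site, against 9.55% of all genes with a promoter. Full p53 elements often lie outside such a window, which was not searched.

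**Figure D4:**
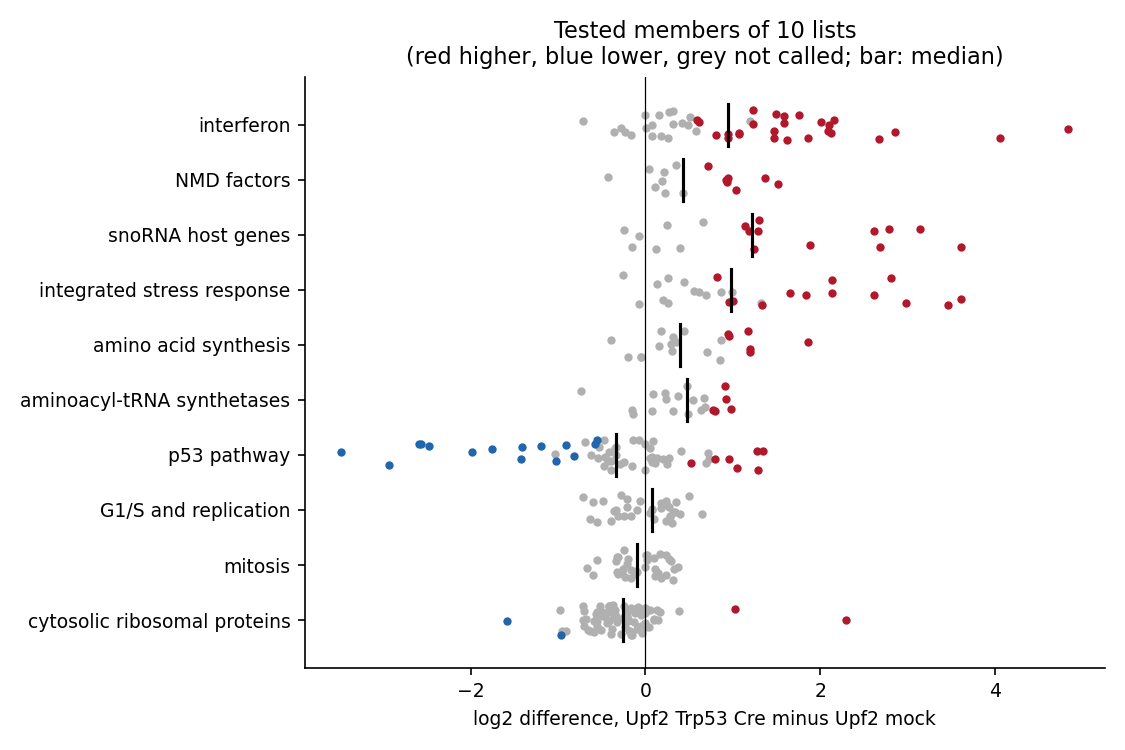
Log2 difference (horizontal axis, Upf2 Trp53 Cre minus Upf2 mock) of every tested member of 10 gene lists; red points are called higher, blue lower, grey not called, and the black bar is the list median. The interferon, snoRNA host gene and stress response lists reach to the right (medians 0.94, 1.21 and 0.98), the p53 pathway spreads to the left (-0.34), and the mitosis list has no called member.

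Of 33 tested apoptosis genes 4 were higher and 1 lower (median 0.15), a share near that over all tested genes (11.6% and 1.28%), and with the GC trend removed 2 were higher and 2 lower. Hrk, a BH3-only death gene, stood at 0.0131, 0.176 and 0.355 TPM in mock and at 1.86, 2.30 and 5.99 TPM in Upf2 Trp53 Cre, and entered the test through the latter (1.65 ± 0.20). The groups do not overlap, at low levels. Casp2 (0.71 ± 0.15) and Casp9 (0.66 ± 0.15) rose, Casp9 not with the GC trend removed and Casp2 not in the fit with all 18 libraries.

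None of 36 tested G1/S and replication genes, 37 mitosis genes and 16 D cyclin and Rb pathway genes was called by limma, and 0, 2 and 0 of them had an unadjusted p under 0.05. Their medians were 0.08, -0.10 and 0.09. Without both libraries numbered 3, 5 replication genes and 1 mitosis gene were lower, and 1 D cyclin and Rb gene was higher and 1 lower. The proliferation marker Mki67 had -0.24 ± 0.26 (limma adjusted p = 0.60), and the mitotic cyclin Ccnb1 had -0.56 ± 0.27 (limma adjusted p = 0.20), called lower only without mock 8, where the limma adjusted p was 0.040. Ccnd1, the cyclin of G1, stood at 30.4, 825 and 1007 TPM in mock and at 476, 1102 and 1355 TPM in Upf2 Trp53 Cre. Mock 3 holds the 30.4 and Upf2 Trp53 Cre 3 the 476, and the groups overlap (1.01 ± 0.69, limma adjusted p = 0.37); without both, limma called it higher (adjusted p = 0.027; 0.26 to 0.54 over the single-library fits).

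Of 16 tested replication-dependent histone genes 7 were higher and none lower, beside 11.6% and 1.28% of all tested genes. Their median was 0.86, and 3 of the 16 had entered through the higher group. The linker histone Hist1h1b ran from 0.739 to 2.22 TPM in mock and from 2.70 to 10.8 in Upf2 Trp53 Cre (2.03 ± 0.27). Hist1h4h (2.01 ± 0.38) and Hist2h3c2 (1.36 ± 0.26) rose too, and the last was lost in the fit with all 18 libraries. Histone genes are near-identical copies, so counting could split their reads. Of 28 primary microcephaly genes, mostly centrosome and spindle proteins, 5 were higher and none lower (median 0.24), beside the same 11.6% and 1.28%. With the GC trend removed 2 were higher and 1 lower. Cep152, a centriole duplication protein, ran from 4.18 to 9.57 TPM in mock and from 11.6 to 21.6 in Upf2 Trp53 Cre (1.16 ± 0.21), and Zfp335 from 20.6 to 25.03 TPM in mock to 36.2 to 56.9 TPM (1.04 ± 0.14). Of 30 break repair and checkpoint genes none was higher and 1 was lower (median 0.07).

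Few cytosolic ribosomal protein genes passed the test. Of 80 tested, 2 were higher and 2 lower, with a median of -0.26, and 36 had an unadjusted p under 0.05. With the GC trend removed 17 were lower, without both libraries numbered 3, 18, and with median-ratio scaling 14. Quantile normalization gave 2. Over all tested genes these settings called 737, 559, 484 and 573 lower, beside 187 in the main fit. Rps27l, a ribosomal protein paralogue and p53 target, ran from 554 to 1103 TPM in mock and from 277 to 665 in Upf2 Trp53 Cre (-0.97 ± 0.22). Rps10 rose (1.03 ± 0.23). Rpl29 was the most changed: it stood at 377, 413 and 449 TPM in mock and at 1816, 2006 and 2493 TPM in Upf2 Trp53 Cre. Both groups are tight and far apart (2.29 ± 0.12, limma adjusted p = 1.1e-08).

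Several copies of other genes were among the largest falls. Gm8210, whose closest protein-coding match is Rpl29 at 99.4% identity, stood at 753, 822 and 953 TPM in mock and at 6.03, 8.27 and 9.76 TPM in Upf2 Trp53 Cre (-6.51 ± 0.13, limma adjusted p = 1.3e-13). No other tested gene fell as far. Gm6344, also 99.4% identical to Rpl29, had medians of 1.68 TPM in mock and 27.2 TPM in Upf2 Trp53 Cre (3.38 ± 0.15). Tma7-ps (-5.62 ± 0.22) is a copy of Tma7, and Gm6916 (-3.62 ± 0.18) matches Tma7 over 44.4% of its transcript. Tma7 itself had 0.27 ± 0.20 (limma adjusted p = 0.42). Gm6166 (-3.62 ± 0.16), 98.3% identical to Fabp5, fell while Fabp5 had -0.28 ± 0.14 (limma adjusted p = 0.23). Gm4737 (-2.55 ± 0.22), 99.7% identical to Ahcy, fell while Ahcy had 0.72 ± 0.22 (limma adjusted p = 0.0496, over 0.05 in 9 of 12 fits without 1 library, all but those without mock 3, mock 8 or Upf2 Trp53 Cre 3, and up to 0.10). Gm48338 (-3.32 ± 0.24) and Gm20075 (-1.86 ± 0.26) are closest to Eef1a1 and Btf3l4. Tma7, Fabp5 and Ahcy were chosen after their values were seen. In the Upf2 Cre libraries Gm8210 ran from 377.1 to 952.5 TPM and Tma7-ps from 238.4 to 870.5 TPM, above every Upf2 Trp53 Cre library. Gm20075 ran from 2.008 to 6.874 TPM there and overlapped Upf2 Trp53 Cre. Reads could be split between a copy and its parent, and how the counting treated them is not given in the sources used here. The cause of these falls was not tested.

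Among nucleolar ribosome biogenesis genes 2 of 27 were higher and none lower; 1 of the 2 was Nat10, an RNA acetyltransferase (0.79 ± 0.19). Of 40 splicing factors 1 was higher, Srsf4 (0.61 ± 0.16), and none lower. That call was lost without Upf2 Trp53 Cre 5, 6 or 9 (limma adjusted p up to 0.055). None of the 13 mitochondrially encoded mRNAs was called by limma, and 1 had an unadjusted p under 0.05.

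The largest rise of all tested genes was that of Rab3b, a small GTPase of regulated secretion. It stood at 2.20, 3.61 and 4.72 TPM in mock and at 169, 215 and 249 TPM in Upf2 Trp53 Cre. All 6 libraries were high (5.61 ± 0.17, limma adjusted p = 2.8e-11). Six3, a homeobox gene of the anterior forebrain and eye, went from at most 0.607 TPM to at least 6.99 TPM (2.99 ± 0.17). Its antisense neighbour Six3os1 did likewise (3.20 ± 0.16); both overlap on opposite strands, and whether counting used strand is not given in the sources used here. Vgf, a secreted neuropeptide precursor (3.00 ± 0.34), and Ptprn, a dense-core vesicle protein (2.97 ± 0.39), rose over a wide range, Vgf from 0.123 to 1.47 TPM to 3.81 to 25.1 TPM. AA465934, a noncoding gene, ran from 16.8 to 22.6 TPM in mock and from 144 to 265 TPM in Upf2 Trp53 Cre (3.48 ± 0.16).

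Mir7688 was listed at 0 in all 6 mock libraries and ran from 7.93 to 34.5 TPM in Upf2 Trp53 Cre, with a median of 25.2. It is a microRNA precursor gene of chromosome 10, and these total RNA libraries measure the locus, not the mature microRNA. Its annotated 5p product (RefSeq, GRCm38.p6, chr10:93433107-93433129, plus strand) is shown with the seed, bases 2 to 8, in capitals, because the gene was at 0 throughout mock.
mmu-miR-7688-5p: uAGCUGGGcaugaucugaugagc
Further falls were of Gm14322 (-1.75 ± 0.23), Svop, a synaptic vesicle protein (median 5.90 TPM in mock, 1.38 in Upf2 Trp53 Cre; -1.64 ± 0.30), and Bmper, a BMP-binding protein (-1.50 ± 0.26). The Svop call was lost in the fit with all 18 libraries.

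Among metabolic and growth lists the share of higher genes varied, from none of 24 cholesterol genes to 4 of 14 genes that restrain mTORC1, beside 11.6% of all tested genes. Of 22 glycolysis genes 4 were higher and 1 lower (3 and 2 with the GC trend removed); Pfkfb3, which makes the activator of phosphofructokinase (1.51 ± 0.30), its platelet form Pfkp (1.2 ± 0.24) and the glucose carrier Slc2a3 (0.85 ± 0.16) rose. No cholesterol gene was called by limma, and 1 had an unadjusted p under 0.05; without both libraries numbered 3, 5 were lower. Of 20 selenoprotein genes 3 were higher and none lower (1 higher with the GC trend removed), led by the peroxidase Gpx1 (1.03 ± 0.15). Of 11 polyamine genes 2 were higher (1 with the GC trend removed), among them the antizyme Oaz2 (0.62 ± 0.13). The 4 higher mTORC1 genes (2 with the GC trend removed, 0 with median-ratio scaling) include the GATOR1 subunit Nprl3 (0.57 ± 0.14), which was not called with either rescaling. Of 24 collagen and laminin list members 6 were higher and none lower (median 0.48, and 4 higher with the GC trend removed). Among them were Col5a3 (1.45 ± 0.19), Lama1 (1.10 ± 0.18), Lama4 (1.02 ± 0.16) and Col18a1 (1.37). Of the 24, 2 reached 1 TPM in fewer than 3 mock libraries, and 5 of the 22 others were higher.

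Among signalling lists, immediate early genes rose, with 8 of 20 tested higher and none lower, beside 11.6% and 1.28% of all tested genes. Their median was 0.78, and 6 were higher with the GC trend removed. The AP-1 members Junb (1.2 to 4.39 TPM in mock, 7.20 to 20.7; 1.70 ± 0.26) and Fosl2 (1.71 to 2.49, 5.36 to 8.60; 1.35 ± 0.15) and the early gene Ier2 (1.47 ± 0.24) do not overlap between groups. Maff (1.72), Klf4 (1.49) and Dusp1 (1.01) rose too. In the Notch list 1 of 18 was higher, the target Hey1 (0.68 ± 0.20), and in the ERK list 1 of 20, the phosphatase Dusp5 (0.74 ± 0.21). Each was lost in 8 of 12 fits without 1 library (limma adjusted p up to 0.087), Hey1 in all but those without mock 3, 8 or 9 or Upf2 Trp53 Cre 4, and Dusp5 in all but those without mock 3, 5 or 8 or Upf2 Trp53 Cre 3. None of 13 BMP and Id genes was called by limma, and 2 had an unadjusted p under 0.05. Of 15 imprinted genes 2 were higher, the zinc finger gene Plagl1 (0.90 ± 0.14) and Igf2r (0.60 ± 0.14), and 1 was lower, Ndn (-0.85 ± 0.24), which was lost in 6 of 12 such fits (mock 4 or 9; Upf2 Trp53 Cre 4, 5, 6 or 8; limma adjusted p up to 0.067).

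**Figure D5:**
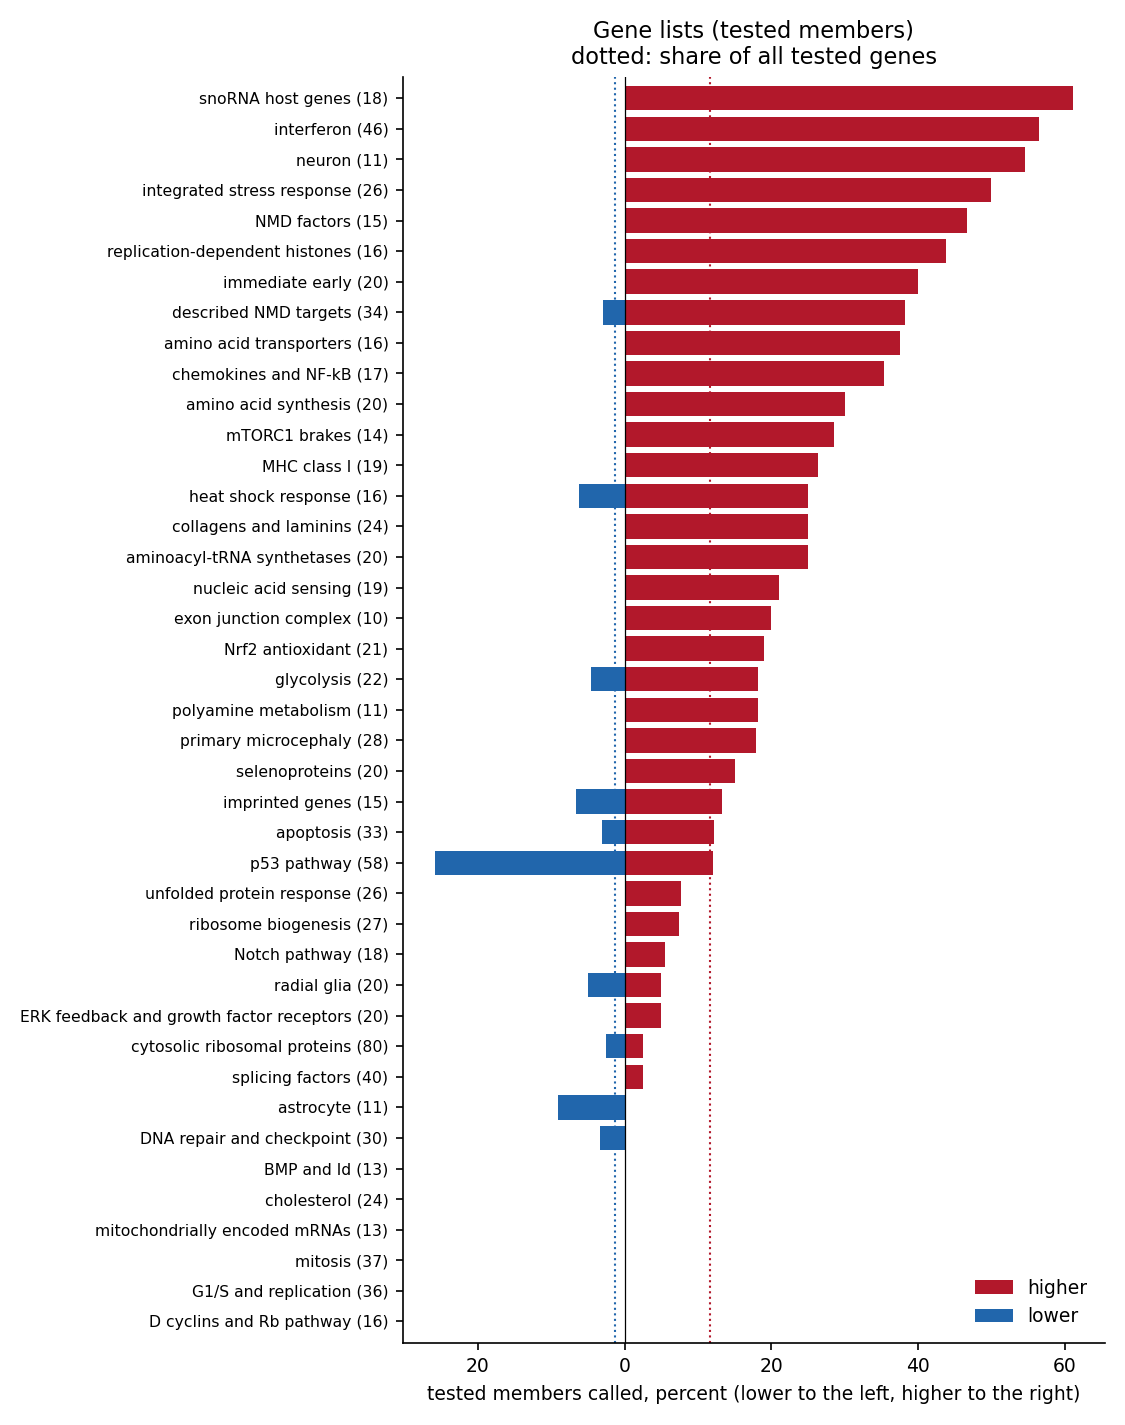
Share of tested members called higher (red, to the right) and lower (blue, to the left) for each list with at least 10 tested members, the number tested in parentheses; dotted lines mark 11.6% and 1.28%, the shares of all tested genes. The snoRNA host gene, interferon, neuron and stress response lists are at the top, and the p53 pathway has the widest blue bar, with 15 of 58.

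The cells carried radial glia markers, and astrocyte and oligodendrocyte lineage markers as given below. All 20 radial glia markers were tested; 1 was higher, the matrix protein Tnc (1.17 ± 0.34), and 1 lower, the glutamate carrier Slc1a3 (-0.72 ± 0.19). The Tnc call was lost in 6 of 12 fits without 1 library (mock 3 or 9; Upf2 Trp53 Cre 3, 4, 5 or 6; limma adjusted p up to 0.084) and the Slc1a3 call without mock 9 (limma adjusted p 0.052). Sox2 (116 to 252 TPM in mock, 118 to 228 in Upf2 Trp53 Cre; -0.28 ± 0.21), Nes (0.09 ± 0.25) and Pax6 (-0.25 ± 0.29) were not called (limma adjusted p = 0.42, 0.86 and 0.61). With the GC trend removed 0 of the list were higher and 3 lower. The summed level of the list ran from 5915 to 14990 TPM in mock (median 11250) and from 5782 to 12080 TPM in Upf2 Trp53 Cre (median 7167).

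Neuronal genes rose. Of 11 tested of 18, 6 were higher and none lower (median 0.77), beside 11.6% and 1.28% of all tested genes. With the GC trend removed 4 were higher and 1 lower. Tubb3, a neuronal tubulin, stood at 23.6, 37.8 and 108 TPM in mock and at 76.2, 102 and 108 TPM in Upf2 Trp53 Cre. The groups overlap through mock 3, the highest of all 12 libraries (1.23 ± 0.31, limma adjusted p = 0.018), and the call was lost with the GC trend removed. The neurofilament Nefm (1.38 to 1.97 TPM in mock, 4.17 to 10.5; 1.57 ± 0.19) and the synaptic Snap25 (0.622 to 2.42, 3.21 to 5.10; 1.10 ± 0.18) rose too, both at low levels. The summed levels of the 18 markers overlapped, at 246 to 436 TPM in mock and 296 to 542 TPM in Upf2 Trp53 Cre. Dlx2, of interneuron precursors, ran from 0.107 to 2.92 TPM in mock, the highest in mock 3, and from 2.00 to 6.69 TPM (1.83 ± 0.32). Of the 10 intermediate progenitor markers 5 were tested and 1, Gadd45g, was higher. Eomes, their defining factor, stayed under the minimum at 0.242 to 0.751 TPM in mock and 0.351 to 1.73 TPM in Upf2 Trp53 Cre.

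Among other cell types, 1 of 11 tested astrocyte markers was called, the gap junction gene Gja1, lower (37.1 to 115 TPM in mock, 14.7 to 35.4 in Upf2 Trp53 Cre; -1.28 ± 0.26). The astrocyte sum ran from 1469 to 6103 TPM in mock and from 1291 to 2441 TPM in Upf2 Trp53 Cre. None of 8 tested oligodendrocyte lineage markers was called by limma, and 0 had an unadjusted p under 0.05. Their list summed to 1582 to 3412 TPM in mock and 1157 to 3606 TPM in Upf2 Trp53 Cre. Of 12 microglia markers 1 reached 1 TPM in any of the 12 libraries, the rest staying at or under 0.649 TPM, and of 7 red blood cell markers none did. Acta2, smooth muscle actin, rose (0.251 to 4.22 TPM in mock, 7.53 to 14.1; 1.95 ± 0.31), as 1 of 2 tested of 12 vascular markers. Otx2, listed for choroid plexus and also a forebrain and midbrain gene, ran from 0.0399 to 1.00 TPM in mock and from 3.08 to 7.17 TPM in Upf2 Trp53 Cre (2.03 ± 0.20); it was 1 of 4 tested of 8. The part of cell composition in the gene differences was not tested.

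Called genes were spread over the genome. Within 5 Mb of Trp53, 17 of 117 tested genes were higher (14.5%) and none lower, beside 15.5% for the whole of chromosome 11, and within 5 Mb of Upf2 none of 31 was called. The X chromosome had the lowest share of higher genes among chromosomes 1 to 19 and X, 4.78%.

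Setting the libraries labelled Upf2 Trp53 Cre against those labelled Upf2 Cre holds the virus constant but not the line, so the line and loss of Trp53 cannot be told apart. Both comparisons share the Upf2 Trp53 Cre libraries. Over the same 14615 genes, 1853 were higher (12.7%) and 347 lower (2.37%; limma, all 18 libraries), with a median of 0.262. With the GC trend removed the counts were 373 and 518. Of the 227 named and tested genes, 59 were higher and 27 lower than in Upf2 Cre, and 32 and 33 with the GC trend removed.

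Interferon genes were higher in Upf2 Trp53 Cre than in Upf2 Cre, with 28 of 46 tested higher and 2 lower (16 and 2 with the GC trend removed). The filter did not use the Upf2 Cre libraries. The 7 members that entered through the Upf2 Trp53 Cre group are thus no independent support here either, and no count was made without them. Isg15 stood at 1.59, 4.74 and 5.80 TPM in Upf2 Cre, overlapping mock and below all Upf2 Trp53 Cre libraries. The difference between the Cre groups was 3.71 ± 0.28 (limma adjusted p = 1.5e-08), and it was 3.29 ± 0.25 for Cxcl10 (1.44 to 5.27 TPM in Upf2 Cre) and 2.63 ± 0.19 for Oasl1. Rab3b (1.56 to 15.9 TPM in Upf2 Cre; 4.95 ± 0.34), Six3 (2.92 ± 0.16), Otx2 (2.26 ± 0.18), AA465934 (3.16 ± 0.15) and Rpl29 (2.94 ± 0.18) were higher too, and Mir7688 was listed at 0 in all 6 Upf2 Cre libraries. All 8 genes with a value here were also higher with the GC trend removed. Of the genes named here, Oasl1, Cxcl10, Six3, Otx2 and Mir7688 entered the test through the Upf2 Trp53 Cre group.

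p53 pathway genes were lower than in Upf2 Cre, with 35 of 58 lower and 1 higher (41 and 1 with the GC trend removed). Cdkn1a stood at 489, 1286 and 1575 TPM in Upf2 Cre, above every mock and every Upf2 Trp53 Cre library. The difference between the Cre groups was -4.22 ± 0.33 (limma adjusted p = 3.6e-08). Svop (12.4 to 294 TPM in Upf2 Cre; -5.55 ± 0.57), Dcxr (71.6 to 830; -5.16 ± 0.46), Bbc3 (26.4 to 85.8; -2.47 ± 0.30) and Bax (182 to 422; -1.76 ± 0.21) were lower, as were Eda2r (-3.59 ± 0.25), Ccng1 (-3.58 ± 0.35) and Mdm2 (-0.89 ± 0.22). All 8 were also lower with the GC trend removed.

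Of the NMD and stress lists, 4 of 15 NMD factors, 7 of 34 described NMD targets, 1 of 18 snoRNA host genes and 6 of 26 stress response genes were higher than in Upf2 Cre, beside 12.7% of all tested genes. In the target list 1 was lower, and in the stress response list 3, beside 2.37%. With the GC trend removed 0, 2, 0 and 1 were higher, and 2 targets and 2 stress response genes lower. Upf2 had a difference of 0.70 ± 0.21 (limma adjusted p = 0.032), not called with the GC trend removed (limma adjusted p = 0.11). Smg5 (100 to 176 TPM in Upf2 Cre) had a difference of 0.13 ± 0.16 (limma adjusted p = 0.57), Zfas1 (447 to 1389 TPM) of 0.49 ± 0.32 (limma adjusted p = 0.28), Gadd45g of 0.05 ± 0.37 (limma adjusted p = 0.93) and Atf4 (612 to 1183 TPM) of 0.33 ± 0.22 (limma adjusted p = 0.27). A p over the threshold does not show that the groups are alike. Atf3 (1.61 ± 0.39, limma adjusted p = 0.015) and Gadd45b (0.97 ± 0.23, limma adjusted p = 0.015) were higher in Upf2 Trp53 Cre, also with the GC trend removed. Bcat1 (11.5 to 35.9 TPM in Upf2 Cre; 1.58 ± 0.24) and Cdkn2a (32.3 to 45.0 TPM; 1.52 ± 0.24) were higher under both settings. Of 37 mitosis genes 25 were higher than in Upf2 Cre (16 with the GC trend removed). Ccnb1 stood at 24.1, 39.2 and 178 TPM in Upf2 Cre (1.46 ± 0.37, limma adjusted p = 0.019), and Mki67 had 0.58 ± 0.28 (limma adjusted p = 0.14). Of 20 tRNA synthetase genes 14 were higher, and of 28 microcephaly genes 13; with the GC trend removed these were 3 and 2.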

How the data were processed

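RNA-seq libraries from 18 progenitor cultures were made by TruSeq Stranded Total RNA preparation, from RNA with an integrity number of at least 9.0, per the labels' protocols. STAR and the mm10 build are named in the submitters' processing notes; the counting step and any strand setting are not given in the sources used here. The authors deposited TPM values per gene, which sum to 1000000 in each library, so read depth is unknown and no interval for counting error was computed. The number of libraries sets the precision.

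Values were transformed to log2(TPM + 1). The 14615 tested genes were fitted with 2 group means in limma 3.58.1 (R 4.3.3), whose moderated test took a trend of variance with level, and p values were adjusted by Benjamini and Hochberg with a threshold of 0.05. The Upf2 Cre group entered a fit of all 18 libraries for its own contrast only. For Upf2 and Trp53 an exact permutation test was used, two-sided; both together gave an adjusted p of 0.0022. Lists are described by counts and medians, without a test. The comparison, the 50 gene lists and the tests were chosen with earlier results of these data known. Named genes are the targeted genes; the 12 largest rises and falls of protein-coding genes and the 5 of other biotypes among called genes with no overlap of groups and a mean of 5 TPM or more in the higher one; for each list role, up to 3 members by adjusted p and any lone called member; and a set of fixed names. The text takes a selection of these, and 35 further genes were chosen after their values were seen; a few genes are not reported here. Gene IDs were matched to GENCODE M21 (55480 of 55573); 27 symbols turned into dates were restored from it. Promoters (27025 genes), microRNAs and coordinates are RefSeq or GENCODE on GRCm38. A promoter was counted as holding a motif when any of its windows held it on either strand. Closest coding transcripts of copies were found with BLAST 2.17.0. GC trends were removed per library by lowess with a span of 0.3 over the 14608 tested genes with a transcript. Python 3.11.15 and Matplotlib 3.10.9 made the plots. The fit was checked on simulated data with known changes and independent noise per gene and library. The simulation held no shared library effect or GC trend, so it does not bear on those.

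Alternatives were median-ratio scaling, quantile normalization, a pseudocount of 0.1, no filter, a minimum mean of 5 TPM, no trend, a minimum change of 1.5-fold, a replicate block, all 18 libraries in the fit, leaving out each library or both numbered 3, and, added after seeing the data, the GC trend removed with and without the block.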

Additional observations from a re-analysis of the deposited data

Results flagged for a closer look

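A library is named here where its value lay apart from the other 5 of its group, with a gap above 0.625 of the group's range (Dixon's rule). Of 366 groups of 6 values looked at, 55 held such a library, and chance gives about 1 in 20. Libraries numbered 3 held 40 of the 55.

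Mock 3 was high for 13 genes. Interferon-induced and sensing genes among them were Oasl2 (0.302 TPM), Irf9 (8.04), Ifi35 (2.55), Mx2 (3.48), Gbp2 (10.4), Ddx58 (5.86) and the immunoproteasome gene Psmb8 (1.85). The others were the host transcripts Zfas1 (275 TPM) and Snhg12 (88.1), the caspases Casp2 (34.9) and Casp9 (25.8), Dlx2 (2.92) and Psat1 (947). Mock 3 was low for 13 genes: the cell cycle genes Ccnd1 (30.4 TPM) and Mki67 (53.3), Atf4 (124), Slc7a1 (10.1) and Ahcy (66.9), and Ier2 (17.9), Maff (0.991), Hsf1 (11.3), Snhg15 (13.0), Pym1 (87.7), Nat10 (12.3), Lama4 (0.525) and Gm4737 (22.2).

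Upf2 Trp53 Cre 3 was high for stress genes, with Ddit3 at 148 TPM, Trib3 at 234, Asns at 809, Mars at 350, Bcat1 at 88.9, Hrk at 5.99 and Cdkn1a at 127. It was low for the NMD factors Smg6 (34.0 TPM) and Upf1 (87.4), and for Ern1 (4.47), Hyou1 (66.6), Ccnd1 (476), Dusp5 (5.01) and AA465934 (144).

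Upf2 Trp53 Cre 4 was low for Ifit1 (0.821 TPM), Ddx58 (2.85), Rtp4 (2.87) and Hist1h1b (2.70) and high for Ahcy (317). Single values apart were Cxcl10 in Upf2 Trp53 Cre 5 (65.3 TPM, high), Ier2 in 8 (102, low) and Slc2a3 in 9 (19.98, high). Mock 8 was high for Nfkb2 (17.96 TPM) and low for Six3os1 (0.113), Tma7-ps (462), Tma7 (89.9), Gm48338 (8.21) and Ifitm3 (3.48), and mock 9 was high for Fabp5 (1106).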

How the results depend on the processing

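Upf2 and Trp53 kept their direction and their call under every alternative run on them, with log2 differences of 1.39 to 1.64 and of -2.81 to -2.49; a replicate block gave 1.52 and -2.57 with an exact sign-flip permutation p of 0.031 for both. The count of higher genes, 1694, was 216 at a minimum change of 1.5-fold and 2892 without both libraries numbered 3. It ran from 1220 to 2294 without 1 library. The count of lower genes, 187, was 484 with median-ratio scaling, 573 with quantile normalization, 29 at a minimum change of 1.5-fold, 559 without both libraries numbered 3 and 737 with the GC trend removed. Without 1 library it ran from 109 to 679, at 302 without mock 3, 679 without mock 8 and 408 without Upf2 Trp53 Cre 3, and at 109, 113, 115 and 120 without mock 4, mock 9, Upf2 Trp53 Cre 5 and 6. Named genes higher than in Upf2 Cre, 59, were 28 with median-ratio scaling, 34 with quantile normalization and 32 with the GC trend removed. In windows of 150 bases before the start, 45.0% of the higher interferon genes held the response element, beside 1.85% of all genes. The ATF4 element was then in 3 of 12 higher stress response genes and 3 of 13 higher amino acid supply genes (2.54% of all genes), and the p53 half-site in 2 of 14 lower p53 pathway genes (4.65%). For the genes whose values are given in the text, 4042 of the values under alternatives kept direction and call, 207 lost the call, 15 gained one and none reversed; 70 of the 162 called genes were called under all 24 alternatives, of which the minimum change of 1.5-fold is the strictest. The causes were not tested. The replicate numbers were not taken to pair the libraries, because that needed every correlation of same-numbered deviations to pass 0.1. They were 0.244, -0.177, 0.560, 0.528, 0.521 and 0.449, positive for 5 of 6 numbers, and not every library matched its own number best, so a shared origin of some numbers was not settled. A block for the number gave 2250 higher and 402 lower genes, and 1787 and 1362 with the GC trend removed too. Depth is unknown, so no limit from counting could be given, and the unequal GC representation is not removed from the main values.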
